A study of Mus musculus with 30 samples.

Results

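The mature red cell is held together by a small set of membrane proteins, and 8 of the genes that encode them are described here in mouse blood stem and progenitor cells: Slc4a1, Aqp1, Rhag, Rhd, Add2, Epb42, Ermap and Kel. They are 8 of the 55471 genes in each of the deposited count tables, were found by symbol in both, and all 8 passed edgeR's filter on low counts (filterByExpr) in both. They were selected on the differences between treatments in these same counts, in which Ermap, Add2 and Slc4a1 stood out, so their differences between treatments in hematopoietic stem cells (HSCs) are given as a description without a p-value. The same holds for Ermap, Add2 and Slc4a1 in multipotent progenitors (MPPs).

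The study asked how bone marrow progenitors of C57BL/6 mice respond to MTP10-HDL, a lipoprotein nanoparticle loaded with a muramyl tripeptide that is sensed as bacterial cell wall. Control mice received phosphate-buffered saline (PBS). RNA was sequenced from 7 PBS and 6 MTP10-HDL pools of HSCs and from 2 PBS and 3 MTP10-HDL pools of MPPs, each pool made from 4 mice, so that a p-value measures the spread between pools. For the MPP mice the labels give 3 injections in 5 days and collection of marrow on the day after the last, with a bead depletion of lineage-positive cells before the sort; no schedule for the HSC mice is given in the sources used here. The labels name no genetic alteration, and the age of the mice is not given in the sources used here. The 12 ATAC-seq samples of the series were not analysed here.

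A red cell keeps its shape because a mesh of spectrin is tied to the lipid bilayer by protein complexes. One kind is built around band 3, the anion exchanger encoded by Slc4a1, which is bound through ankyrin and protein 4.2 and carries the Rh proteins with it. Another is a junction where short actin filaments are capped and bundled by adducin, tropomyosin and dematin. Most of these genes are switched on under the transcription factors GATA1 and KLF1 as committed erythroid precursors mature, and a stem cell holds few of their transcripts. In bulk RNA, fewer cells of a type and less RNA per cell cannot be told apart.

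The genes lie on 5 chromosomes, so they share no locus. On assembly GRCm38.p6 (mm10), Slc4a1 (ENSMUSG00000006574) spans chr11:102348820-102365281, Aqp1 (ENSMUSG00000004655) chr6:55336299-55348555, Rhag (ENSMUSG00000023926) chr17:40811099-40844094 and Rhd (ENSMUSG00000028825) chr4:134864536-134896172. Add2 (ENSMUSG00000030000) spans chr6:86028681-86124409, Epb42 (ENSMUSG00000023216) chr2:121017891-121036877, Ermap (ENSMUSG00000028644) chr4:119175457-119190013 and Kel (ENSMUSG00000029866) chr6:41686329-41704334. No other RefSeq gene overlapped any of these spans, and the strand setting of the counting is not given in the sources used here.

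The sequence just ahead of the annotated start is shown for 4 genes whose level differed with treatment, 3 of which hold a word bound by GATA factors and 1 of which does not. Each stretch is the 120 bases before the gene span, from RefSeq (GRCm38.p6), read 5′ to 3′ on the strand of the gene, and capitals mark the word AGATAA and the related word TGATAA, on either strand.
Ermap (chr4:119190014-119190133, minus strand): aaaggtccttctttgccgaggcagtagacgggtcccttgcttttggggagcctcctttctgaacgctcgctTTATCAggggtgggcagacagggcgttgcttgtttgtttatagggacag
Rhd (chr4:134864416-134864535, plus strand): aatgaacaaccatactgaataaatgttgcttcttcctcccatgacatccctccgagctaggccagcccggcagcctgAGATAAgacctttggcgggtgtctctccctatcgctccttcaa
Kel (chr6:41704335-41704454, minus strand): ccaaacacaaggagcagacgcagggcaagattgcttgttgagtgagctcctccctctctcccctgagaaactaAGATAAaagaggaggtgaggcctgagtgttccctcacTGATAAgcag
Add2 (chr6:86028561-86028680, plus strand): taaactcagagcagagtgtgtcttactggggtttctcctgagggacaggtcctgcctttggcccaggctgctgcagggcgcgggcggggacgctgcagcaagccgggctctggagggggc

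RefSeq windows of 250 bases before a transcript start were searched, and 7 of the 8 genes had one; those of Ermap, Kel and Rhag start from a transcript within the gene span and so run into it. Of the 7 windows 5 held AGATAA or TGATAA on either strand. The same was true of 16.6% of all 32851 windows. AGATAA was found ahead of Epb42, Kel and Rhd (9.99% of all windows) and TGATAA ahead of Ermap, Kel and Rhag (7.94%). In Rhag the match, at chr17:40811118-40811123, lies inside the annotated gene span. A CACC-box-like word, CCNCNCCC, of the kind bound by KLF1, was in 2 of 7 windows (Add2 and Aqp1) and in 45.9% of all windows, and the E-box CANNTG was in 4 of 7 (Add2, Aqp1, Epb42 and Kel) and in 66.2% of all. The 2 windows without a GATA word, those of Aqp1 and Add2, had a GC content of 62.0% and 53.2%, against 39.2% to 49.2% in the other 5 and a median of 52.4% over all windows. A match describes letters in a window and not a bound site.

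Total counts per library ran from 4064155 to 7879858 in HSCs and from 11252479 to 32769369 in MPPs, where all 3 MTP10-HDL libraries were deeper than both PBS libraries. In MPPs the share of ribosomal RNA was 1.47% and 1.26% in PBS 2 and PBS 3. In MTP10-HDL libraries 1 to 3 it was 0.92%, 0.85% and 0.51%. The share of immunoglobulin genes was also higher in both PBS libraries than in all 3 MTP10-HDL libraries. Depth and both shares thus went with treatment in MPPs, and their part in the differences of the 8 genes was not tested. The HSC libraries differed in quality as well. PBS 1, PBS 4, MTP10-HDL 2 and MTP10-HDL 3 detected 24233 to 27528 genes and the other 9 detected 31100 to 37406. PBS 4 stood apart for the red cell genes as well, since it was the lowest PBS library for 7 of the 8, all but Add2. Of the marker genes of each labelled cell type, all 11 for stem cells were detected in every HSC library and all 8 for multipotent progenitors in every MPP library. Both sets were also detected in every library of the other cell type, so detection does not tell the cell types apart. Levels are given as CPM, counts set to a common library size after TMM scaling, and are compared between treatments within a table, not between genes or between the tables, whose library kits differed.

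In HSCs all 8 genes were lower with MTP10-HDL, from 2.00-fold for Epb42 to 5.79-fold for Slc4a1. The value of Slc4a1 leans on PBS 5: on the log2 scale it was -2.53 with that library and -1.79 without it, where Rhd was at -2.24. Of all 16631 genes tested, 52.3% had a negative log2 fold change (MTP10-HDL over PBS) and 6.08% one of -1 or less, as had 7 of the 8; these values come from the contrast in which the genes were chosen. Summed over the 8 genes, the PBS libraries held 124 to 486 CPM and the MTP10-HDL libraries 64.4 to 167 CPM. The ranges overlapped through PBS 4 (124 CPM) and MTP10-HDL 4 (167 CPM), and the next lowest PBS library held 235 CPM. No gene of any kind passed a false discovery rate (FDR) of 0.05 in HSCs by edgeR's quasi-likelihood test; 744 were lower (4.47%) and 725 higher (4.36%) at an unadjusted p under 0.05, DESeq2 called 104 and limma voom 0.

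**Figure D1:**
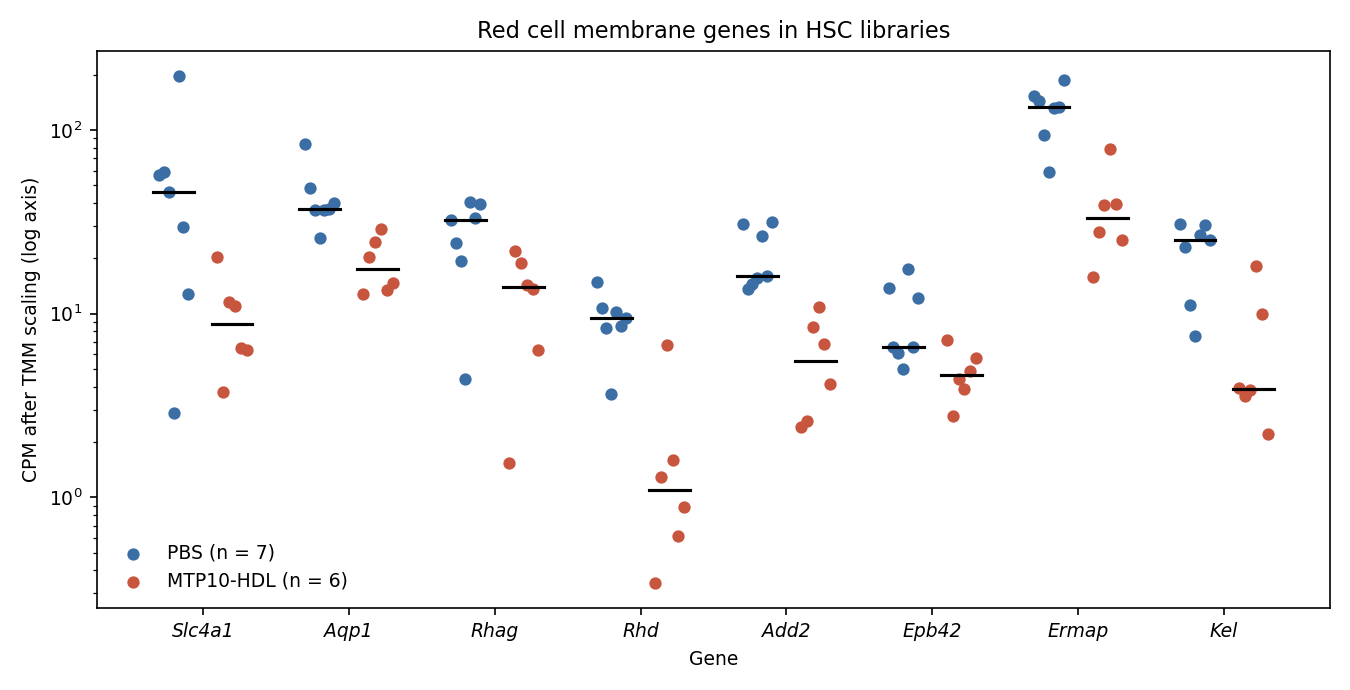
CPM of the 8 red cell membrane genes in each HSC library, on a log axis; points are libraries (7 PBS, 6 MTP10-HDL) and bars are group medians. Only for Add2 does every MTP10-HDL point lie under every PBS point; the low PBS point of 7 genes is PBS 4.

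Among the transport proteins, Slc4a1 had the widest relative spread of all 8 genes between control pools (a coefficient of variation of 113%). It ranged from 2.89 CPM in PBS 4 to 196 CPM in PBS 5, with a median of 46.0 CPM, and with MTP10-HDL from 3.73 to 20.4 CPM with a median of 8.74 CPM. The groups overlapped: 5 PBS libraries lay above the highest MTP10-HDL library, while PBS 4 lay under the lowest and PBS 7 (12.8 CPM) within their range. The means were 57.6 ± 64.8 CPM (SD, n = 7) and 9.92 ± 5.95 CPM (n = 6), a log2 fold change of -2.53 (SE 0.67). Band 3, its product, exchanges chloride for bicarbonate and is the chief anchor of the skeleton.

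Aqp1, the water channel that also carries the Colton blood group, was tighter. PBS libraries ranged from 25.8 CPM (PBS 4) through a median of 37.3 to 83.3 CPM (PBS 1), and MTP10-HDL libraries from 12.7 through 17.4 to 28.9 CPM (MTP10-HDL 4). Of the 6 MTP10-HDL libraries 5 lay under the lowest PBS library, and the overlap came from MTP10-HDL 4 against PBS 4. The log2 fold change was -1.20 (SE 0.27), between means of 43.99 ± 18.5 and 19.1 ± 6.65 CPM (SD).

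The Rh proteins form a complex in the red cell membrane. Rhag, the glycoprotein that conducts ammonia and is needed to bring the Rh antigens to the surface, ranged from 4.39 to 40.6 CPM with PBS (median 32.1) and from 1.54 to 21.9 CPM with MTP10-HDL (median 14.0). Only 1 of the 6 MTP10-HDL libraries was under the lowest PBS library, which was again PBS 4, although all 6 were under the PBS median. The log2 fold change was -1.10 (SE 0.49), between means of 27.6 ± 12.8 and 12.8 ± 7.62 CPM. Rhd, the carrier of the Rh antigen itself, stood at 3.64 to 14.9 CPM with PBS (median 9.47) and at 0.343 to 6.77 CPM with MTP10-HDL (median 1.09). Here 5 of 6 MTP10-HDL libraries lay under every PBS library, and the sixth, MTP10-HDL 3, held 6.77 CPM where the next held 1.60. The Rhd log2 fold change was -2.27 (SE 0.58), and -3.29 without MTP10-HDL 3.

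Of the skeletal genes, Add2 was the only one of the 8 whose groups did not overlap, in a table where 28 genes (0.168%) had every MTP10-HDL library under every PBS library. It encodes beta-adducin, which caps actin filaments and fastens spectrin to them. PBS libraries lay between 13.6 CPM (PBS 2) and 31.7 CPM (PBS 7) with a median of 15.9, and MTP10-HDL libraries between 2.40 CPM (MTP10-HDL 1) and 10.8 CPM (MTP10-HDL 4) with a median of 5.49. The gap between the groups was therefore small beside their spread. The means were 21.2 ± 8.09 and 5.88 ± 3.41 CPM, a log2 fold change of -1.85 (SE 0.37). Epb42, which encodes protein 4.2, the transglutaminase-like partner of band 3, was the member with the smallest difference. It was at 5.02 to 17.4 CPM with PBS (median 6.59) and at 2.75 to 7.21 CPM with MTP10-HDL (median 4.64). Of the 6 MTP10-HDL libraries 5 were under the PBS median and 4 under the lowest PBS library, and the log2 fold change was -0.998 (SE 0.36).

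Ermap and Kel encode surface proteins that carry blood group antigens, Scianna on the butyrophilin-like protein ERMAP and Kell on a zinc endopeptidase. Ermap ranged from 59.1 CPM (PBS 4) through 133 to 186 CPM (PBS 7) with PBS, and from 15.8 CPM (MTP10-HDL 1) through 33.3 to 78.7 CPM (MTP10-HDL 4) with MTP10-HDL. A single MTP10-HDL library, number 4, reached into the control range, and the only control under it was PBS 4. The log2 fold change of Ermap was -1.77 (SE 0.32), between means of 129 ± 41.3 and 37.6 ± 21.99 CPM. Kel was at 7.53 to 30.8 CPM with PBS (median 25.1) and at 2.22 to 18.1 CPM with MTP10-HDL (median 3.90). Its MTP10-HDL libraries 4 and 5 (18.1 and 9.90 CPM) overlapped PBS 3 and PBS 4 (11.2 and 7.53 CPM), and the log2 fold change was -1.67 (SE 0.47).

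In MPPs the 8 genes were again all lower with MTP10-HDL, by 2.45-fold for Aqp1 to 60.7-fold for Slc4a1, where 48% of all genes tested had a negative log2 fold change. The transcripts were scarce. All 3 MTP10-HDL libraries lay under both PBS libraries for each of the 8, as they did for 1897 of the 15449 genes tested (12.3%), and all 8 had a log2 fold change of -1 or less, as had 8.27% of genes. None of the 5 members given a p-value passed the FDR threshold, nor did any other gene of the table by edgeR's quasi-likelihood test (628 lower, 4.06%, and 335 higher, 2.17%, at an unadjusted p under 0.05; DESeq2 called 163 genes and limma voom 0). PBS 2 was above PBS 3 for all 8 genes. Summed over the 8, PBS libraries 2 and 3 held 47.2 and 21.9 CPM, from 693 and 247 counts, and MTP10-HDL libraries 1, 2 and 3 held 5.51, 4.86 and 11.5 CPM, from 187, 137 and 209 counts.

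**Figure D2:**
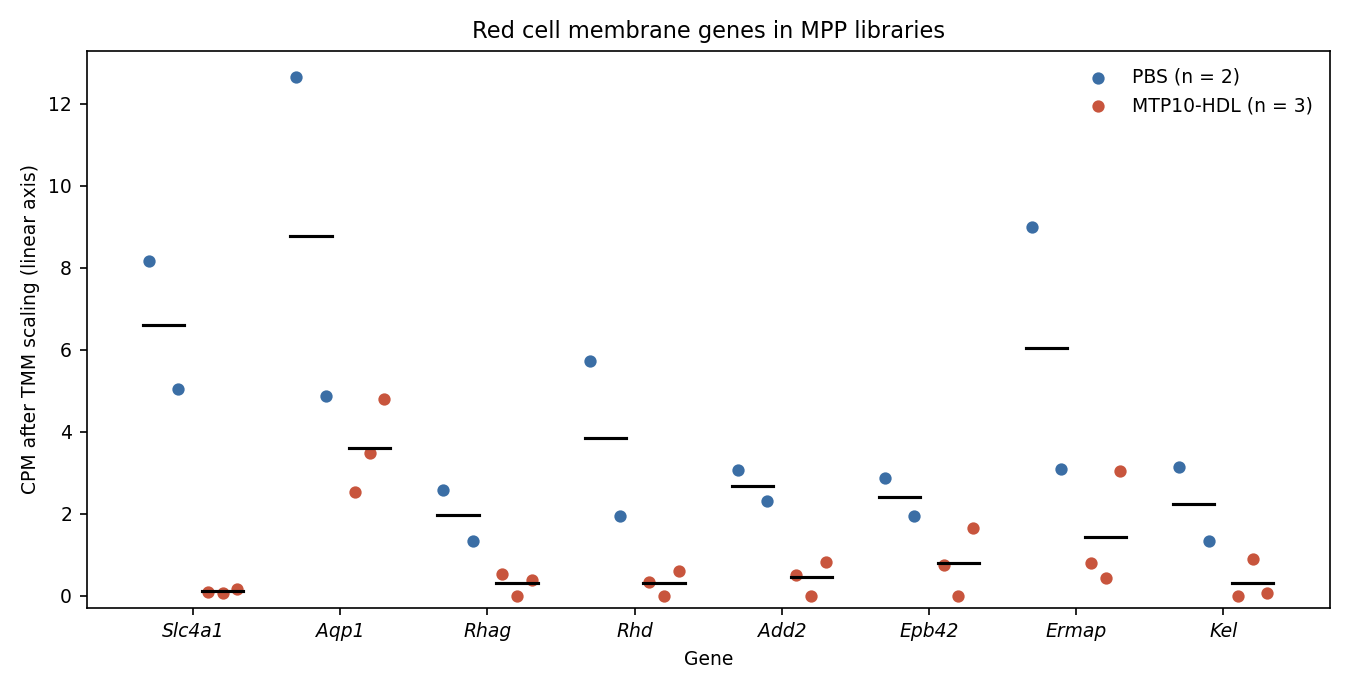
CPM of the 8 genes in each MPP library on a linear axis; points are libraries (2 PBS, 3 MTP10-HDL) and bars are group means. Slc4a1 is near 0 in all 3 MTP10-HDL libraries, while for Aqp1 and Ermap the highest MTP10-HDL library almost touches the lower PBS library.

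Slc4a1 was nearly absent from treated MPPs. The 3 MTP10-HDL libraries held 3, 2 and 3 counts (0.0885, 0.0710 and 0.165 CPM), about the level of 3 counts in a library, and PBS 2 and PBS 3 held 120 and 57 counts (8.17 and 5.04 CPM). Pooled over libraries the level was 68.3-fold lower with MTP10-HDL, with a 95% interval of 33.9 to 161 that covers counting error only. The fitted log2 fold change was -5.92 (SE 0.68).

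The other transport genes had smaller differences in MPPs. Aqp1 stood at 2.54, 3.48 and 4.79 CPM in MTP10-HDL libraries 1 to 3 and at 12.7 and 4.87 CPM in PBS 2 and PBS 3. The groups were parted by the narrow step from 4.79 to 4.87 CPM, and the log2 fold change of -1.29 (SE 0.51, edgeR adjusted p = 0.783) was -0.45 without PBS 2. Rhag was at 0.531, 0 and 0.385 CPM with MTP10-HDL and at 2.59 and 1.33 CPM with PBS, a log2 fold change of -2.66 (SE 1.34, edgeR adjusted p = 0.819), which became -3.40 on leaving out MTP10-HDL 1 and -2.07 on leaving out MTP10-HDL 2. Rhd was at 0.324, 0 and 0.605 CPM with MTP10-HDL and at 5.72 and 1.95 CPM with PBS. Its log2 fold change of -3.66 (SE 1.243) had an edgeR adjusted p of 0.717. With no filter on low counts that adjusted p was 0.00967, in a fit where 345 of 26208 genes passed. For Rhd the log2 fold change was -2.66 without PBS 2, -3.06 without MTP10-HDL 2 and -4.47 without MTP10-HDL 3.

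For the skeletal genes, MTP10-HDL 2 held no count of either. Add2 was at 0.501, 0 and 0.825 CPM with MTP10-HDL and at 3.06 and 2.30 CPM with PBS, a log2 fold change of -2.61 (SE 1.29), which became -2.02 on leaving out MTP10-HDL 2 and -3.36 on leaving out MTP10-HDL 3. Epb42 was at 0.737, 0 and 1.65 CPM with MTP10-HDL and at 2.86 and 1.95 CPM with PBS, a log2 fold change of -1.61 (SE 1.35, edgeR adjusted p = 0.897), which became -1.02 on leaving out MTP10-HDL 2 and -2.67 on leaving out MTP10-HDL 3. A count of 0 in MTP10-HDL 2, as for Rhag, Rhd, Add2 and Epb42, allows a level of up to 0.106 CPM by counting error only, which is under both PBS libraries for each of these genes.

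Ermap was at 0.796, 0.426 and 3.03 CPM in MTP10-HDL libraries 1 to 3 of the MPPs and at 8.98 and 3.10 CPM with PBS. MTP10-HDL 3 thus came within a small step of PBS 3, and the log2 fold change of -2.12 (SE 0.88) was -3.29 without MTP10-HDL 3 and -1.15 without PBS 2. Kel was at 0, 0.887 and 0.0550 CPM with MTP10-HDL, of which the last is a single count, and at 3.13 and 1.33 CPM with PBS. The Kel log2 fold change was -2.79 (SE 1.54, edgeR adjusted p = 0.847), and it rests on MTP10-HDL 2, which holds 25 of the 26 Kel counts of that group: it was -6.36 without that library, -2.20 without MTP10-HDL 1 and -2.08 without PBS 2.

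Whether MPPs and HSCs respond to a different degree was examined in 1 fit over both tables, as the MPP log2 fold change minus that of HSCs. Library kit went with cell type, so an effect of kit on this difference cannot be told apart from one of cell type. The MPP counts of Slc4a1, Rhag, Rhd, Add2, Epb42 and Kel were low. Over all 24470 genes the median estimate was 0.09, and the share below 0 was not counted. The estimate was negative for all 8 genes, from -0.10 (SE 0.54) for Aqp1 to -3.33 (SE 1.27) for Slc4a1. For Kel it was -1.10 (SE 1.10), for Rhd -1.38 (SE 1.19) and for Rhag -1.53 (SE 1.05). For Ermap it was -0.41 (SE 0.72), for Epb42 -0.61 (SE 1.01) and for Add2 -0.76 (SE 0.89), each smaller than its SE. Among 24470 genes 1 passed the FDR threshold (0.00409%; 653, or 2.67%, had a lower MPP response at an unadjusted p under 0.05, and DESeq2 called 2), and it was none of the 8.

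Other genes of the red cell membrane were nearly as often higher as lower. Of 52 other membrane genes, 50 were tested in HSCs, of which 27 were lower and 23 higher, and their median was -0.02 (log2), the same as over all genes tested. None passed the FDR threshold; 8 were lower and 2 higher at an unadjusted p under 0.05. Among the genes of smallest p in HSCs were Ank1, Tfrc, Sptb and Dmtn. Ank1, the ankyrin that ties band 3 to spectrin, was at 45.4 ± 19.7 and 14.9 ± 8.45 CPM (log2 fold change -1.61, SE 0.37). Sptb, the beta-spectrin of the red cell, differed by -1.501 (SE 0.44). Dmtn, the actin-bundling dematin, differed by -1.18 (SE 0.41) and Tfrc, the transferrin receptor, by -0.73 (SE 0.19), with edgeR adjusted p-values of 0.216 to 0.446 for these 4.

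In MPPs 28 of 49 tested genes of that list were lower and 21 higher, with a median of -0.08 against 0.02 over all genes, and again none passed. Among the genes of smallest p were the cation channel gene Trpc6 (-1.58, SE 0.31), the potassium-chloride cotransporter gene Slc12a4 (-1.02, SE 0.31) and the complement regulator gene Cd55 (-0.81, SE 0.32) on the lower side. On the higher side were the tropomyosin gene Tpm4 (0.72, SE 0.20) and the lactate transporter gene Slc16a1 (0.62, SE 0.25), and edgeR adjusted p-values ran from 0.320 to 0.787.

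**Figure D3:**
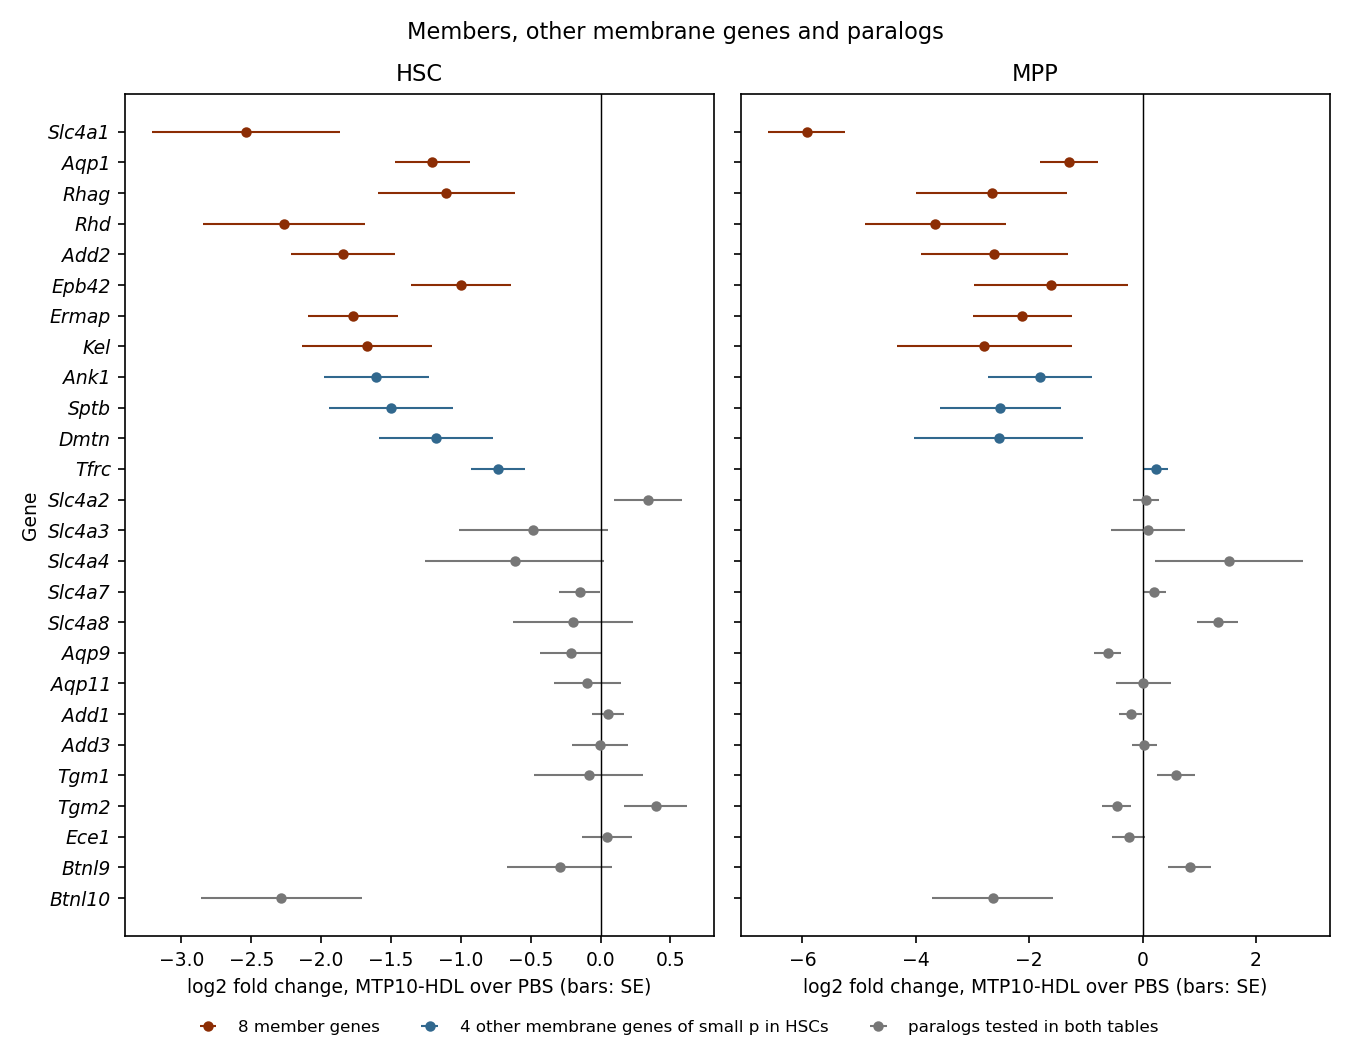
log2 fold change (MTP10-HDL over PBS) with its SE in HSCs (left) and MPPs (right; the axes differ in range) for the 8 genes, 4 other membrane genes of small p in HSCs, and the paralogs tested in both tables. The paralogs lie near 0 in HSCs except for Btnl10 at -2.28, while the 8 genes lie between -0.998 and -2.53.

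Relatives of the 8 genes from the same gene families were set beside them; 2 of these, Add1 and Add3, also count in the list of other membrane genes. Of 29 paralogs, 15 were tested in HSCs, with 10 lower, 5 higher, a median of -0.10 and none past the FDR threshold. Beside Add2 at -1.85, the widely expressed adducins Add1 and Add3 differed by 0.05 (SE 0.12) and -0.0030 (SE 0.20). Beside Slc4a1 at -2.53, the bicarbonate transporters Slc4a2 and Slc4a7 differed by 0.34 (SE 0.24) and -0.15 (SE 0.15), and the scarcer Slc4a3, Slc4a4 and Slc4a8 by -0.48 (SE 0.53), -0.61 (SE 0.64) and -0.20 (SE 0.43). Beside Aqp1 at -1.20, the aquaporins Aqp9 and Aqp11 differed by -0.21 (SE 0.22) and -0.10 (SE 0.24). The transglutaminases Tgm1, Tgm2 and Tgm3, relatives of Epb42, differed by -0.09 (SE 0.39), 0.39 (SE 0.23) and 0.46 (SE 0.58), and Ece1, a peptidase related to Kel, by 0.05 (SE 0.18). The butyrophilin-like gene Btnl9 differed by -0.29 (SE 0.38), and Btnl10, a relative of Ermap, by -2.28 (SE 0.57), from 18.5 ± 16.2 CPM in PBS to 3.80 ± 2.92 CPM in MTP10-HDL libraries (edgeR adjusted p = 0.279).

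In MPPs 15 paralogs were tested, with 6 lower and 9 higher and a median of 0.03. Btnl10 was at -2.64 (SE 1.07, edgeR adjusted p = 0.787), and Add1 and Add3 at -0.20 (SE 0.20) and 0.03 (SE 0.22). Slc4a8 was at 1.33 (SE 0.36, edgeR adjusted p = 0.559), opposite in sign to Slc4a1, and Slc4a4 at 1.52 (SE 1.31). Slc4a2, Slc4a3 and Slc4a7 were at 0.06 (SE 0.23), 0.09 (SE 0.66) and 0.21 (SE 0.21). The aquaporins Aqp7, Aqp9 and Aqp11 were at -1.08 (SE 1.67), -0.62 (SE 0.23) and 0.02 (SE 0.48), Tgm1 and Tgm2 at 0.60 (SE 0.34) and -0.46 (SE 0.26), Ece1 at -0.24 (SE 0.29) and Btnl9 at 0.83 (SE 0.38). None passed the FDR threshold.

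The nearest protein-coding gene on each side of the members was also read, 16 in all. In HSCs 13 of these could be tested, of which 7 were higher and 6 lower, and the log2 fold changes had a median of 0.01 and a range of -1.31 (Llcfc1, beside Kel) to 0.33 (Ccndbp1, beside Epb42). Ubtf beside Slc4a1 differed by 0.01 (SE 0.18) and Rundc3a on its other side by -0.84 (SE 0.59), Zfp691 and Svbp beside Ermap by 0.07 (SE 0.34) and -0.52 (SE 0.66), and Maco1 and Tmem50a beside Rhd by -0.11 (SE 0.16) and 0.29 (SE 0.20). In MPPs 11 were tested, 7 higher and 4 lower, with a median of 0.10.

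Genes for the contents of the red cell and for its regulators were examined in the same way. Of 20 globin and heme genes 15 were tested in HSCs, with 13 lower and 2 higher and a median of -0.39, and none passed the FDR threshold. Car1 and Car2, carbonic anhydrases, were at -1.19 (SE 0.31) and -0.64 (SE 0.17), Cpox, of the heme pathway, at -1.06 (SE 0.29), and Alas2, its erythroid first enzyme, at -0.80 (SE 0.31), with edgeR adjusted p-values of 0.283 to 0.495. In MPPs 8 of 15 were lower and 7 higher with a median of -0.12; Hbb-bs and Hba-a1, globin genes with near-identical copies to which reads may have been split, were at -2.94 (SE 0.66) and -3.01 (SE 0.71), Car1 at -2.04 (SE 0.66) and Car2 at -0.61 (SE 0.24), with edgeR adjusted p-values of 0.395 to 0.781.

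All 20 erythroid regulators were tested in both tables and none passed the FDR threshold. In HSCs 11 were lower and 9 higher with a median of -0.12. Gata1, the master factor of the lineage, was at -0.25 (SE 0.33), Epor, the erythropoietin receptor, at -0.50 (SE 0.32), and Klf1, the activator of many late erythroid genes, at -1.01 (SE 0.37), with edgeR adjusted p-values of 0.831, 0.658 and 0.482. Nfia, a factor of erythroid commitment, was at -0.86 (SE 0.16, edgeR adjusted p = 0.190), and Ikzf1 and Bcl11a at -0.25 (SE 0.11) and -0.27 (SE 0.16). In MPPs 17 of 20 were lower with a median of -0.36, among them Klf1 at -1.72 (SE 0.77), Gfi1b at -0.77 (SE 0.29), Nfia at -0.71 (SE 0.27) and Cbfa2t3 at -0.58 (SE 0.26), with edgeR adjusted p-values of 0.748 to 0.808. Epor and Gata1 were at -1.90 and -0.75 there, with edgeR adjusted p-values of 0.875 and 0.880.

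Markers of cells that may accompany a sort were summed per library. Of 14 erythroblast markers 12 were tested in HSCs, 12 of 12 were lower, and their summed level was 691 to 1119 CPM with PBS and 401 to 731 CPM with MTP10-HDL; the bulk of it was Car2, Car1 and Tfrc, at most 1 of the 13 markers in the table was at 0 in any library, and Ahsp was not analysed here. Tfrc belongs to the membrane list as well. The 10 tested B cell markers were all lower as well (50.7 to 457 CPM with PBS, 49.3 to 137 CPM with MTP10-HDL), as were 5 of 5 tested basophil and mast cell markers (90.6 to 253 and 56.5 to 139 CPM). All 10 mature neutrophil markers were higher (95.9 to 3744 and 598 to 5551 CPM). At an unadjusted edgeR p under 0.05 were 9 erythroblast, 6 B cell, 4 basophil and mast cell and 0 neutrophil markers. None of these markers passed the FDR threshold. Of all genes tested in HSCs, 4.47% were lower and 4.36% higher at that unadjusted p. The summed levels of the erythroblast, B cell, basophil and mast cell, and neutrophil markers each overlapped between the treatments. Markers of erythroblast-island macrophages (126 to 2260 and 131 to 2052 CPM), megakaryocytes (346 to 917 and 457 to 904 CPM) and stem cells (1547 to 2922 and 1544 to 2323 CPM) overlapped between the treatments. In MPPs 10 of 12 tested erythroblast markers were lower (661 to 955 and 534 to 606 CPM, with at most 2 of 13 at 0), 9 of 10 macrophage markers were lower (110 to 126 and 48.5 to 90.7 CPM), and the sums of megakaryocyte (244 to 254 and 162 to 172 CPM) and stem cell markers (1560 to 1740 and 970 to 1202 CPM) were lower. The sum of multipotent progenitor markers was higher (3130 to 3692 and 4361 to 4961 CPM). Endothelial markers overlapped between the treatments in HSCs (207 to 366 and 210 to 306 CPM) and in MPPs (429 to 499 and 417 to 536 CPM), as did B cell (377 to 498 and 314 to 491 CPM) and neutrophil markers (613 to 762 and 241 to 1653 CPM) in MPPs. The part of other cells in the differences of the 8 genes was not tested.

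The HSC difference was also taken within 3 groups of libraries of like quality. These were the 4 with fewest detected genes (PBS 1 and 4, MTP10-HDL 2 and 3), the 4 of the rest with the highest share of ribosomal RNA (PBS 2 and 3, MTP10-HDL 1 and 4) and the other 5. In log2 CPM, Ermap differed by -1.53, -1.70 and -2.22 in these groups, Add2 by -2.14, -1.38 and -2.09 and Slc4a1 by -0.96, -1.77 and -2.66. Rhag turned sign in the first group (0.74, then -2.07 and -1.97), where PBS 4 is 1 of only 2 PBS libraries. Aqp1 (-1.05, -1.11 and -1.42), Rhd (-1.20, -3.11 and -3.18), Epb42 (-1.19, -0.24 and -1.03) and Kel (-1.96, -0.88 and -2.44) were lower in all 3.

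**Figure D4:**
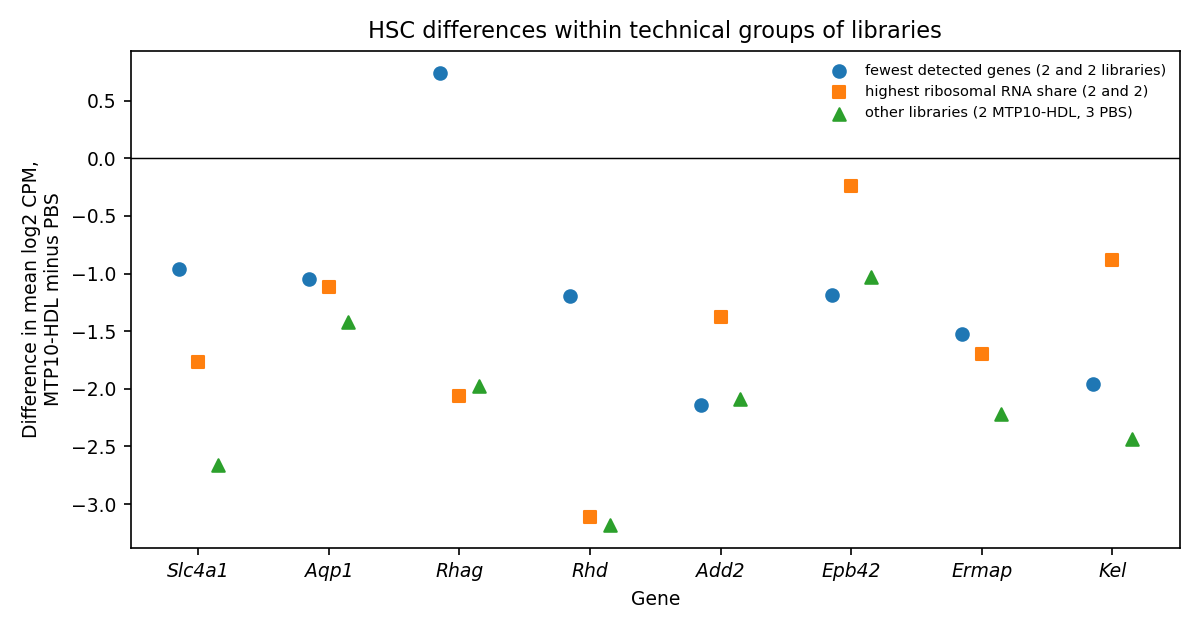
Difference in mean log2 CPM (MTP10-HDL minus PBS) of each gene within 3 groups of HSC libraries of like quality; 1 symbol per group. All points but that of Rhag in the libraries with fewest detected genes (0.74) lie under 0.

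Variation apart from treatment was described over the 13 HSC libraries after removal of the treatment means. Over the 28 pairs of genes Pearson's r had a mean of 0.45 (SD 0.24), ranged from 0.07 for Rhag with Epb42 to 0.84 for Ermap with Kel, and was never negative. Ermap also went with Add2 and Rhag (r = 0.78 for each), and Aqp1 with Rhd (r = 0.75). Spearman's rho was slightly negative for Slc4a1 with Add2 (-0.13), Rhag (-0.09) and Ermap (-0.01), and positive for the other pairs. Slc4a1 and Epb42, whose products bind each other, had r = 0.60, the highest for either of them, and at most 0.40 with any other member. In the 7 PBS libraries alone their r was 0.59, the highest for neither. There Epb42 had r = 0.89 with Add2, and Slc4a1 had r = 0.77 with Rhd. Over both treatments without PBS 4, the library low for most of these genes, the mean r of the 28 pairs was 0.28. The points share library depth and quality, and no test is attached to these values.

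**Figure D5:**
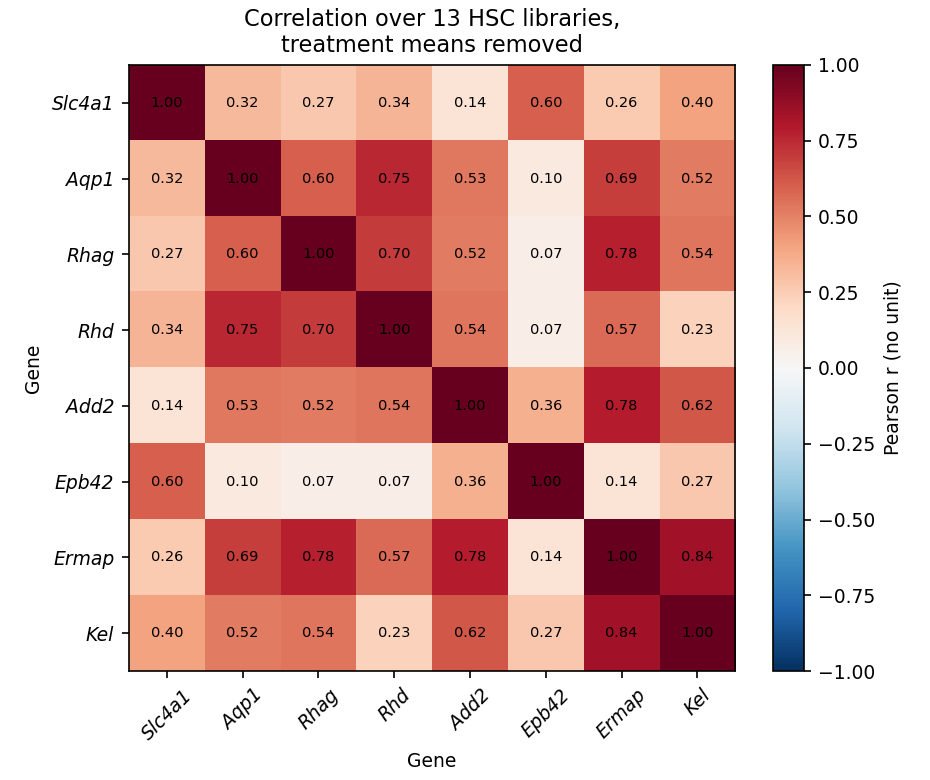
Pearson's r between the log2 CPM of each pair of the 8 genes over 13 HSC libraries, treatment means removed. Among Ermap, Kel, Add2, Rhag, Rhd and Aqp1 r ran from 0.23 to 0.84. Towards these genes Slc4a1 had 0.14 to 0.40 and Epb42 0.07 to 0.36, so the ranges overlap. Slc4a1 with Epb42 had r = 0.60.

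The libraries in which the 8 genes were high were those in which erythroblast markers were high: their mean log2 CPM and the summed markers, treatment means removed, had r = 0.83 and Spearman's rho 0.88 over the 13 libraries. The same mean had r = -0.56 with stem cell markers, 0.48 with B cell markers, 0.26 with the number of detected genes, 0.20 with the ribosomal RNA share, 0.02 with the immunoglobulin share and -0.34 with total counts. Among 9691 genes with a mean of at least 10 CPM (median r -0.06), the profiles most like the mean of the 8 were those of Ctse (r = 0.93), Tfrc (0.92), Sptb (0.91), Nrg1 (0.88) and Polr2h (0.87). Ctse, encoding the aspartic protease cathepsin E, averaged 140 CPM in PBS and 58.8 CPM in MTP10-HDL libraries, or -1.25 on the log2 scale (SE 0.28). Nrg1 (0.47, SE 0.48) and Polr2h (0.12, SE 0.24) varied with the members among libraries without being lower with MTP10-HDL. The genes most like Ermap alone were Dkc1 (r = 0.91), Hbs1l (0.89) and Ank1 (0.85), and of these Ank1 differed with treatment by -1.61 and Dkc1 and Hbs1l by -0.10 (SE 0.15) and -0.08 (SE 0.13).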

How the data were processed

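The authors deposited whole-number read counts per Ensembl gene, 1 table per cell type, not normalized, judged from the file headers and the values. Per the labels, HSC libraries came from amplified cDNA and MPP libraries from poly-A RNA with a directional kit. The submitters' processing notes name mm10, CASAVA 1.8.2 and STAR 2.5.2b for HSCs, and mm10, STAR 2.7.2a, DESeq2 1.24 and R 3.6.1 for MPPs. Not given in the sources used here: the counter, its annotation and strand setting, and how multiply matching reads were treated.

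Each table was fitted apart with edgeR 4.0.16 in R 4.3.3: scaling by TMM (trimmed mean of M values), the default filterByExpr filter, the quasi-likelihood F test (2-sided) and Benjamini-Hochberg adjustment over all genes tested, with a threshold of 0.05. SEs are the fold change divided by the square root of F. log2 CPM used a prior count of 2, and floors are 3 counts. The test was checked on simulated data. Alternatives were DESeq2 1.42.0, limma 3.58.1 (voom), RLE scaling, other filters, blocks, counts without immunoglobulin genes and leaving out each library; PBS columns of the HSC table carry numbers other than the labels' and stand for their group.

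The members, gene lists, named genes and quality groups were chosen with earlier results of these data known. Named were the 8 members, the 6 membrane genes and 4 genes of each other list with the smallest p, all tested paralogs, Gata1, Klf1 and Epor, and the 5 profiles most like the members' mean and 3 most like Ermap. Some genes that this rule names are not reported here. Neighbouring genes were named after their values were seen. Promoter windows and positions came from RefSeq (GRCm38.p6), matched by symbol.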

Additional observations from a re-analysis of the deposited data

Results flagged for a closer look

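Member values in HSC libraries formed 16 groups (8 genes, 2 treatments). Of these, 3 held a library far from the rest by Dixon's rule, applied to CPM. For normally distributed values, chance alone meets this rule in about 1 group in 20. CPM need not be so distributed, and the rule was not applied to log2 CPM. No excess over chance is therefore read from the 3 groups. Slc4a1 was at 196 CPM in PBS 5, where the next highest PBS library held 58.7 CPM. Aqp1 was at 83.3 CPM in PBS 1, where the next held 48.3 CPM. Rhd was at 6.77 CPM in MTP10-HDL 3, where the next MTP10-HDL library held 1.60 CPM.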

How the results depend on the processing

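All 254 member fold changes from alternative fits (8 genes, 2 tables) had the direction of the main fit. They came from 21 alternative fits in HSCs and 11 in MPPs, which share most of their libraries. In HSCs the genes were chosen on these differences. Sizes were less stable: leaving out 1 library moved a fold by over 1.5 times for Slc4a1 and Rhd in HSCs (Rhd to -3.29 without MTP10-HDL 3) and for all but Slc4a1 in MPPs. Over all alternatives the MPP log2 fold changes ran from -6.36 to -2.08 for Kel, -3.92 to -2.02 for Add2, -3.31 to -1.02 for Epb42 and -1.82 to -0.45 for Aqp1; limma voom gave -1.76 for Slc4a1 in HSCs. Rhd in MPPs passed with no filter (edgeR adjusted p = 0.00967), in a fit where 345 of 26208 genes passed. By DESeq2 its adjusted p was 0.069. The members were chosen from these same counts, so the pass with no filter is not read as support. Counts of genes past the FDR threshold depended on the tool and filter. In HSCs the count of 0 became 44 with no filter, 104 by DESeq2 and 0 to 1 when a library was left out (1 without MTP10-HDL 4). In MPPs it became 345 with no filter, 163 by DESeq2 and 0 to 17 when a library was left out (17 without PBS 3). The response difference passed for 4 genes with no filter and 2 by DESeq2, none a member. RLE scaling, limma voom, a minimum of 10 CPM and counts without immunoglobulin genes left both counts at 0, as did a block for library quality in HSCs. At 10 CPM, Rhd and Epb42 in HSCs and all 8 in MPPs were not tested. The median of all HSC genes was -0.15 with no filter and -0.23 by DESeq2. With the replicate number as a block HSCs had 0 calls and MPPs 59 (57 lower); same-numbered libraries had correlations of -0.19 to 0.19 in HSCs and of -0.17 and -0.03 in MPPs, so the numbers were not taken as pairs. In HSCs, 2 of 6 numbers correlated best with their own. Low counts limit the MPP values of Slc4a1, Rhag, Rhd, Add2, Epb42 and Kel. The causes were not tested. Protein lengths and identities were not run.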
